A study of Mus musculus with 8 samples.

Results

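Receptors for glutamate, GABA and glycine were followed at the level of their subunit genes in neural stem and progenitor cells (NSPCs) of the mouse cortex. The set held 52 genes of the 55385 measured, chosen by a rule on the gene symbol among protein-coding genes: 4 AMPA, 5 kainate, 7 NMDA and 2 delta receptor genes, 8 metabotropic glutamate receptor genes, 19 GABA-A and 2 GABA-B receptor genes, and 5 glycine receptor genes. The cells were sorted by flow cytometry from cortex freshly taken apart at postnatal day 7. The iKO group (4 libraries) was Nestin-CreERT2; Ash2lf/f; tdTomato, and the WT group (4 libraries) was Nestin-CreERT2; tdTomato, so both groups carried the inducible Cre and the red reporter and differed in the floxed Ash2l alleles. The Nestin promoter drives Cre in neural progenitors, and deletion is therefore limited to cells in which it was active at induction and to their progeny. The series text calls the 4 libraries of a group biological replicates and leaves unsaid if animals were pooled. Each library held RNA of both sexes (values below), so none came from 1 animal alone. The p-values speak only of the spread between these libraries, not of that between animals.

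Fast excitatory signals in the brain pass through ionotropic glutamate receptors, tetramers built from AMPA, kainate or NMDA subunits. Metabotropic glutamate receptors act through G proteins. GABA-A and glycine receptors are pentameric chloride channels, and GABA-B receptors are G protein coupled dimers. Radial glia, neuroblasts and astrocytes carry many of these receptors before synapses form, and in immature cells GABA is known to depolarise. ASH2L belongs to the enzyme complexes that add methyl groups to lysine 4 of histone H3, a mark found at active promoters and above all at those rich in CpG.

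Promoter sequences are shown for 5 members because they run from few to many CpG and, between them, from low to high levels in these cells. Each is the RefSeq window of 300 bases around a start of transcription in RefSeq (GRCm38.p6), printed 5′ to 3′ on the strand of the gene, with every CpG in capitals. Grik3 lies at chr4:125490446-125490745 (plus strand) and holds 50 CpG, Gria2 at chr3:80802786-80803085 (minus strand) with 26, Gabra4 at chr5:71658259-71658558 (minus strand) with 12, Grm3 at chr5:9725303-9725602 (minus strand) with 11, and Gabrg1 at chr5:70842568-70842867 (minus strand) with 3. The RefSeq start of Grm3 lies upstream of the GENCODE M21 gene model given with its values, so that window does not overlap the model.
Grik3: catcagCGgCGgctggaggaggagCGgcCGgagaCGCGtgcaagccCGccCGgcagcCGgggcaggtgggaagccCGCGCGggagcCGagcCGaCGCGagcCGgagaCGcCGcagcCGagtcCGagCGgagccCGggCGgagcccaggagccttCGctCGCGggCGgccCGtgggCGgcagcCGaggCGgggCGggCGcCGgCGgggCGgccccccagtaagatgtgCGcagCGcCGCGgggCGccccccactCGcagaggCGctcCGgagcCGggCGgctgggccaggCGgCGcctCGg
Gria2: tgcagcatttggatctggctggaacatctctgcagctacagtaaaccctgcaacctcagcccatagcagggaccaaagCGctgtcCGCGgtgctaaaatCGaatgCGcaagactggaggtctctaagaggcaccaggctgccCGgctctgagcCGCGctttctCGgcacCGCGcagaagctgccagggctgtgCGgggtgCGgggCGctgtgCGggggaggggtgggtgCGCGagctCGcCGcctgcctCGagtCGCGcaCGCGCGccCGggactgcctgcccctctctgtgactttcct
Gabra4: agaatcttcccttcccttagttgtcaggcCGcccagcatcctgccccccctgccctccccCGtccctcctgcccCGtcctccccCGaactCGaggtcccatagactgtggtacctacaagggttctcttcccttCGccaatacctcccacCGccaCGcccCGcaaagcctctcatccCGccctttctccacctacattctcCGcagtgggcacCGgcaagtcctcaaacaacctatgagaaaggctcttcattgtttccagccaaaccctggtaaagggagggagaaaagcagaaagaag
Grm3: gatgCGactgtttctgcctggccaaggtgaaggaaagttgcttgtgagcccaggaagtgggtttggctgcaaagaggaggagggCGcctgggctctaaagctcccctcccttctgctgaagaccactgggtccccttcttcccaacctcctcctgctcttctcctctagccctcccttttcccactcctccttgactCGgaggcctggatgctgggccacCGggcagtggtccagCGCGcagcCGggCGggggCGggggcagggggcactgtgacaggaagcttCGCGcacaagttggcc
Gabrg1: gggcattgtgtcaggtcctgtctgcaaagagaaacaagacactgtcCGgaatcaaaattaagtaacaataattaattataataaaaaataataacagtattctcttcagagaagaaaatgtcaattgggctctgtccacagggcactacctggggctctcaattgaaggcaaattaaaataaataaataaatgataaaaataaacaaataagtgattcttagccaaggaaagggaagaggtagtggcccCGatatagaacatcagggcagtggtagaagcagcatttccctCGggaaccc
The order of these 5 genes by CpG was not their order by level: Grik3, with the most CpG, had a mean over all libraries of 3.27 TPM, and Gabrg1, with the fewest, of 33.6 TPM. RefSeq windows were found for 36 of the 52 members (43 windows, since some genes have several starts). Their median CpG count was 13 in 29 windows of genes that passed the filter on low values described next and 6 in 14 windows of genes that did not, against 7 over all 32851 windows. The core letters ATTGAT or ATCGAT of Onecut factors, searched on both strands because the series title names Onecut2, occurred in 2 member windows (Grm8 and Gabrg3), or 4.65%, against 8.4% of all windows. A match of letters is not evidence of binding, and ATCGAT itself contains a CpG.

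Levels are given in TPM, which is scaled for transcript length and for the library total, so that levels of different genes can be set side by side. TPM keeps no sequencing depth, and the depth of each library is unknown. Ash2l, the targeted gene, stood at 7.54, 6.11, 7.69 and 7.18 TPM in iKO libraries 1 to 4 and at 18.1, 16.1, 19.2 and 17.2 TPM in WT libraries 1 to 4 (log2 fold change -1.20, SE 0.0797, adjusted p = 3.82e-06). Progenitor and glial genes were abundant in both groups. Means of iKO and WT were 925 and 664 TPM for Fabp7, 679 and 651 TPM for Hes5 and 70.6 and 59.6 TPM for Nes. These means were higher in iKO, but those of the 3 most abundant genes of the same marker list were lower. They were Clu (1429 and 2041 TPM), Slc1a3 (1241 and 2039 TPM) and Aqp4 (1167 and 1267 TPM). Slc17a7, the vesicular glutamate transporter gene of mature cortical neurons, stayed under 1 TPM in every library. Snap25, a neuronal SNARE gene, was present at 107 and 78.1 TPM and Cldn5, an endothelial junction gene, at 627 and 335 TPM, so the libraries also held RNA of other cell types. Summed levels of most marker lists differed between the groups. Markers are counted as higher or lower in iKO at an adjusted p under 0.05 in limma. Of all tested genes, 20.7% were higher and 31.9% lower by that measure. The 20 astrocyte and radial glia markers ranged in sum from 9357 to 9667 TPM in iKO libraries and from 12148 to 12494 TPM in WT libraries, with 3 higher and 13 lower. The 19 neuroblast markers summed to 6142 to 6376 and 5438 to 5617 TPM (12 higher, 4 lower), the 16 mature neuron markers to 682 to 697 and 621 to 652 TPM (5 higher, 3 lower), and the 12 endothelial markers to 998 to 1063 and 581 to 610.1 TPM (11 higher, none lower). The 12 oligodendrocyte precursor markers summed to 1747 to 1823 TPM (iKO) and 1786 to 1809 TPM (WT; 3 higher, 7 lower), the 10 oligodendrocyte markers to 234 to 251 and 205 to 217 TPM (4 higher, 1 lower), the 12 microglia markers to 666 to 696 and 766 to 818 TPM (2 higher, 8 lower) and the 8 pericyte markers to 986 to 1030.1 and 851 to 906 TPM (3 higher, 3 lower). Single genes weigh on such sums. Olig1 (1516 and 1492 TPM, means of iKO and WT) was most of the oligodendrocyte precursor sum, while the median log2 fold change of that list was -0.26. Stmn1 (2211 and 1841 TPM) was the largest part of the neuroblast sum. The 8 blood cell markers reached 722 to 843 TPM in the iKO libraries against 72 to 83.8 TPM in WT (5 higher, none lower), with Cd3e and Ly6g listed at 0 throughout. A score of Y-linked genes against Xist also separated the groups, at -0.824 to -0.262 in iKO and 0.565 to 1.01 in WT. The part of these differences in the receptor results was not tested, and in such bulk libraries fewer cells of a type and less RNA per cell cannot be told apart.

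Of the 52 subunit genes, 34 passed the filter (at least 1 TPM in at least 4 libraries), 16 were detected below it and 2, Gabra6 and Grm6, were listed at 0 in all 8 libraries. None of the 34 passed through 1 group alone with every library of the other under 1 TPM. Among the 34, 5 were higher and 15 lower in iKO and 14 did not pass the test at an adjusted p under 0.05. That is 58.8% called, against 52.6% of all 16413 genes tested, 14.7% called higher against 20.7%, and 44.1% called lower against 31.9%, so the count called lay near that of the whole table. The median log2 fold change of the 34 was -0.17, against -0.06 for all tested genes. Most differences were small: in 16 of the 20 called genes the log2 fold change lay within 0.5 of 0, as in 68.2% of all called genes. Groups did not overlap for 20 of the 34 genes, against 49.2% of all genes tested. The split depended on scaling, with 6 higher and 12 lower after trimmed mean of M values factors, 6 and 11 after quantile normalization, and 6 and 10 after removal of a trend with transcript length and GC content. With the Y-linked score as a covariate no member was called, and neither was Ash2l (adjusted p = 0.142), since the score and the genotype cannot be told apart in these libraries.

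**Figure D1:**
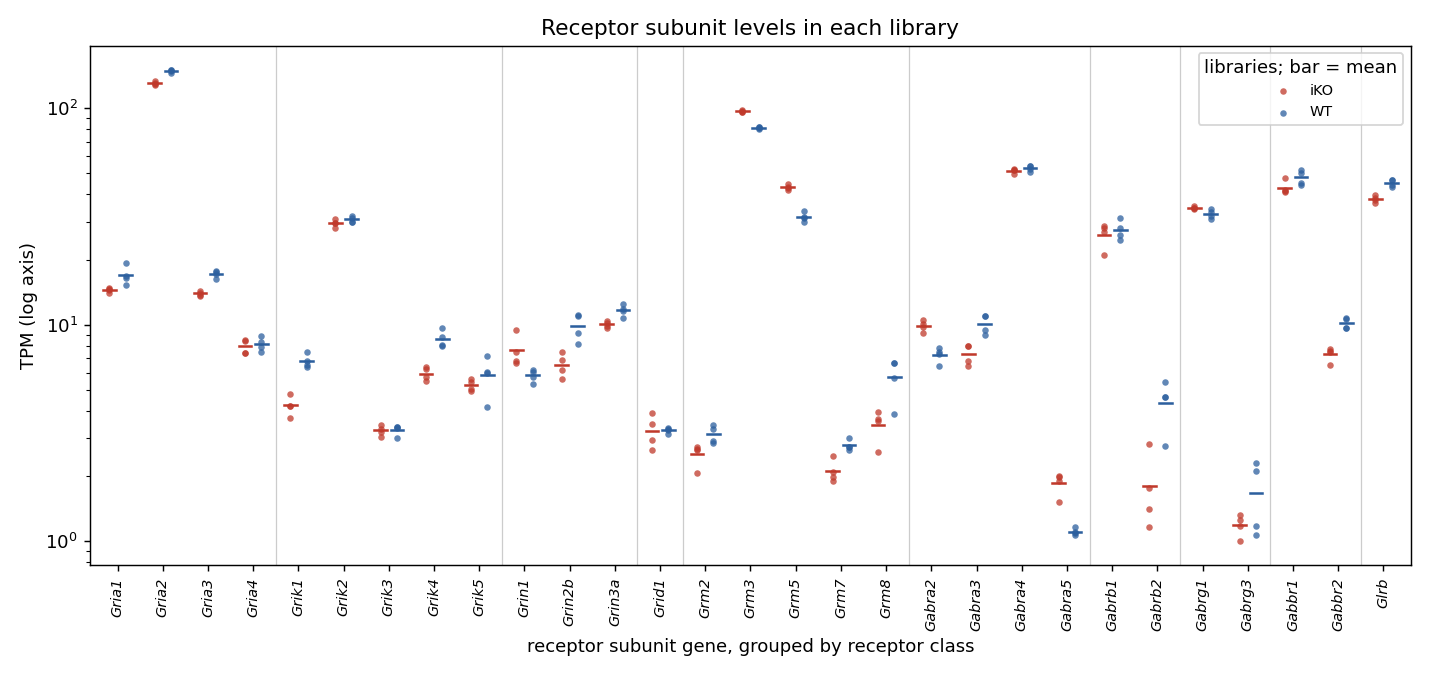
TPM of 29 of the 34 subunit genes that passed the filter, on a log axis, with 1 point per library (red, iKO; blue, WT) and a bar at each group's mean. Gria2 and Grm3 lay highest in both groups, and the groups of most genes lay close together. The means of Gabrb2, Gabra5 and Grm8 were among the widest apart, though the groups overlapped for Gabrb2 and Grm8.

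The same few subunits dominated in both groups. In WT the highest were Gria2 (149 TPM), Grm3 (81.2 TPM), Gabra4 (52.9 TPM), Gabbr1 (48 TPM) and Glrb (45.1 TPM), followed by Gabrg1 (32.5 TPM), Grm5 (31.5 TPM), Grik2 (30.7 TPM) and Gabrb1 (27.3 TPM). The ranges of Gabra4 and Gabbr1 overlapped in WT, as did those of Gabbr1 and Glrb, of Gabrg1 and Grm5, of Grm5 and Grik2, and of Grik2 and Gabrb1. In iKO the order was Gria2 (131 TPM), Grm3 (96.9 TPM), Gabra4 (51.5 TPM), Grm5 (43.3 TPM), Gabbr1 (43 TPM), Glrb (38.2 TPM), Gabrg1 (34.7 TPM), Grik2 (29.5 TPM) and Gabrb1 (26.1 TPM). Of the neighbours in that order, Grm5 with Gabbr1 and Grik2 with Gabrb1 had overlapping ranges. Grm5 thus stood 7th in WT and 4th in iKO.

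AMPA receptor genes were led by Gria2, whose subunit GluA2 makes the channel nearly impermeable to calcium once its transcript is edited. Gria2 (ENSMUSG00000033981.14, chr3:80681450-80802835 in GENCODE M21, GRCm38) stood at 128, 131, 133 and 129.6 TPM in iKO libraries 1 to 4 and at 145, 151, 149 and 150.2 TPM in WT libraries 1 to 4. Every iKO library lay below every WT library, and the log2 fold change was -0.19 (SE 0.0224, adjusted p = 0.000134). The gene was also called lower with trimmed mean of M values factors (-0.12, adjusted p = 0.00109) and with quantile normalization (-0.24, 2.54e-05), but not after removal of the length and GC trend (-0.02, 0.432). Gria3 stood at 14.1, 13.6, 13.8 and 14.4 TPM in iKO and at 16.3, 17.1, 17.6 and 17.7 TPM in WT, again without overlap (log2 fold change -0.28, SE 0.0446, adjusted p = 0.000811). Gria1 stood at 14.8, 14, 14.5 and 14.6 TPM in iKO and at 15.3, 16.8, 16.5 and 19.3 TPM in WT (log2 fold change -0.21, SE 0.067, adjusted p = 0.0273). The Gria1 call was lost in 9 of 19 alternatives, among them all 3 other scalings (adjusted p = 0.0931 to 0.241) and the fits without iKO replicate 2 (0.0668), 3 (0.0552) or 4 (0.0515) or WT replicate 2 (0.051). Gria4 ranged from 7.39 to 8.53 TPM in iKO and from 7.53 to 8.88 TPM in WT and did not pass (adjusted p = 0.709).

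The make-up of the AMPA class was nearly the same in the groups. Gria2 held 78.2% ± 0.634 of the summed AMPA TPM in iKO and 77.9% ± 0.611 in WT (SD, n = 4), Gria1 8.67% and 8.86%, Gria3 8.38% and 8.98%, and Gria4 4.76% and 4.27%. Shares are described without a test. The summed TPM of the class was 166 to 169.8 in iKO and 184 to 195 in WT.

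Kainate receptor genes divided into low-affinity subunits (Grik1, Grik2, Grik3), which can form channels alone, and the high-affinity subunits Grik4 and Grik5, which need a low-affinity partner. Grik2 led the class at 27.9, 30.8, 29.5 and 29.6 TPM in iKO and 30, 31.2, 30 and 31.7 TPM in WT, and did not pass (adjusted p = 0.259). Grik1 fell, from 6.39, 6.83, 6.52 and 7.48 TPM in WT to 3.71, 4.23, 4.24 and 4.8 TPM in iKO (log2 fold change -0.57, SE 0.0805, adjusted p = 0.000356). Its groups did not overlap, and its log2 fold change in the authors' deposited table was -0.65.

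Grik4 fell as well, from 9.72, 8.03, 8.8 and 8 TPM in WT to 6.23, 5.73, 6.4 and 5.48 TPM in iKO (log2 fold change -0.47, SE 0.0768, adjusted p = 0.000918), also without overlap. Grik5 stood at 4.96, 5.43, 5.65 and 5.03 TPM in iKO and 7.2, 4.17, 6.03 and 6.02 TPM in WT and did not pass (adjusted p = 0.498); without WT replicate 2, its lowest WT library, the log2 fold change was -0.24 (adjusted p = 0.0442). Grik3, the CpG-rich gene printed above, ranged from 3.05 to 3.46 TPM in iKO and from 2.99 to 3.39 TPM in WT (adjusted p = 0.954). The share of Grik2 in the summed kainate TPM was 61.1% ± 0.978 in iKO and 55.6% ± 2.09 in WT (SD, n = 4), while Grik1 held 8.81% ± 0.86 and 12.3% ± 0.825 and Grik4 12.4% ± 1.02 and 15.6% ± 1.36.

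NMDA receptors need the obligatory subunit GluN1, encoded by Grin1, together with GluN2 or GluN3 subunits; GluN2B is the main GluN2 of the young cortex and GluN3A marks immature receptors with low calcium flux. Grin1 was the only ionotropic glutamate receptor gene called higher, at 7.47, 9.5, 6.84 and 6.69 TPM in iKO and 5.77, 5.33, 6.05 and 6.19 TPM in WT (log2 fold change 0.33, SE 0.103, adjusted p = 0.0259). The groups did not overlap, but the gene no longer passed without iKO replicate 1 (adjusted p = 0.0505), without WT replicate 1 (0.0533) or 2 (0.0661) and with the replicate number as a block (0.0669). An annotated antisense gene, Grin1os, shares 1307 exonic bases with Grin1 and stood at 0 to 0.145 TPM.

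Grin2b moved the other way, from 9.16, 8.13, 11.1 and 11 TPM in WT to 5.64, 7.47, 6.85 and 6.19 TPM in iKO (log2 fold change -0.52, SE 0.112, adjusted p = 0.00412). All iKO libraries lay below all WT libraries, and in the authors' deposited table the log2 fold change was smaller, at -0.29. Grin3a stood at 9.71, 10.4, 9.92 and 10.2 TPM in iKO and 11.6, 12.5, 11.8 and 10.7 TPM in WT (log2 fold change -0.19, SE 0.0549, adjusted p = 0.0158), a call lost under all 3 other scalings (adjusted p = 0.0575 to 0.265). Grin2a, the GluN2 subunit that gains ground as the cortex matures, was below the filter at 0.305, 0.259, 0.243 and 0.224 TPM in iKO and 0.776, 0.41, 1.08 and 1.54 TPM in WT. Its groups did not overlap (exact permutation p = 0.0286, the smallest that 4 against 4 libraries allow; adjusted p = 0.123), a separation shared by 23.2% of the 7700 genes in that family, of which 0 passed at an adjusted p under 0.05. Grin2a had a log2 fold change of -0.42 in the authors' deposited table (adjusted p = 0.158).

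Among the 3 leading NMDA genes, the share of Grin1 was larger and that of Grin2b smaller in iKO, while that of Grin3a was nearly equal. Grin1 held 29.7% ± 2.84 of the summed NMDA TPM in iKO and 20% ± 0.392 in WT, Grin2b 25.5% ± 1.69 and 33.5% ± 3.35, and Grin3a 39.5% ± 2.32 and 40% ± 4.27 (SD, n = 4). Within the GluN2 genes alone, Grin2b held 87% ± 3.12 in iKO and 85.4% ± 2.72 in WT, and Grin2a 3.47% ± 0.669 and 7.92% ± 3.06. Grin2c, Grin2d and Grin3b stayed under 1 TPM in every library with overlapping groups; Grin3b shares 1059 exonic bases with Tmem259 on the opposite strand, a gene at 14 TPM in iKO and at 11.4 TPM in WT; without strand, reads of the pair cannot be told apart.

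Grid1 encodes a delta receptor subunit, which binds cerebellin and acts as a synaptic adhesion protein. It stood at 3.47, 2.64, 2.95 and 3.91 TPM in iKO and 3.12, 3.33, 3.28 and 3.3 TPM in WT, with overlapping groups, and did not pass (adjusted p = 0.913).

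Metabotropic glutamate receptor genes included Grm3 and Grm5, the members called higher with the smallest adjusted p. Grm3 encodes a receptor of group II, coupled to inhibition of adenylyl cyclase and known from astrocytes, and Grm5 encodes the group I receptor that triggers calcium release in progenitors and young astrocytes. Grm3 (ENSMUSG00000003974.6, chr5:9485541-9725170) stood at 96.4, 96.6, 96.8 and 97.7 TPM in iKO and 82.1, 80.5, 81.6 and 80.7 TPM in WT (log2 fold change 0.25, SE 0.0212, adjusted p = 1.6e-05). Grm5 (ENSMUSG00000049583.15, chr7:87584168-88134907) stood at 42.1, 43.5, 44.9 and 42.8 TPM in iKO and 31.6, 31.2, 33.4 and 29.8 TPM in WT (log2 fold change 0.45, SE 0.042, adjusted p = 2.99e-05). Both rose without overlap between the groups. Of the 20 astrocyte and radial glia markers, 13 were lower in iKO and 3 higher. The part of cell make-up in the Grm3 and Grm5 results was not tested. Of the 19 alternatives, only the Y-linked score ended either call, and the authors' deposited table gave larger log2 fold changes of 0.34 for Grm3 and 0.69 for Grm5.

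Of the group III receptor genes, which encode mostly presynaptic autoreceptors, Grm7 and Grm8 were called lower, and Grm4 and Grm6 were below the filter. Grm8 fell from 3.86, 5.66, 6.68 and 6.67 TPM in WT to 3.97, 2.6, 3.69 and 3.59 TPM in iKO (log2 fold change -0.58, SE 0.164, adjusted p = 0.0162). WT replicate 1 lay within the iKO range. Grm7 fell from 2.72, 2.74, 3 and 2.63 TPM to 2.09, 1.99, 2.47 and 1.9 TPM (log2 fold change -0.28, SE 0.0842, adjusted p = 0.0209), a call lost with quantile normalization, with the length and GC trend removed, and without iKO replicate 2 (adjusted p = 0.0523) or 4 (0.0558) or WT replicate 3 (0.0561). Grm4 stayed near the filter at 0.298 to 1.04 TPM. Grm2, which is not of group III, did not pass (2.07 to 2.73 TPM in iKO against 2.84 to 3.46 TPM in WT, without overlap, adjusted p = 0.0707). Grm3 held 64.2% ± 0.702 of the summed metabotropic TPM in iKO and 64.3% ± 1.28 in WT, and Grm5 28.7% ± 0.52 and 24.9% ± 0.952 (SD, n = 4).

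**Figure D2:**
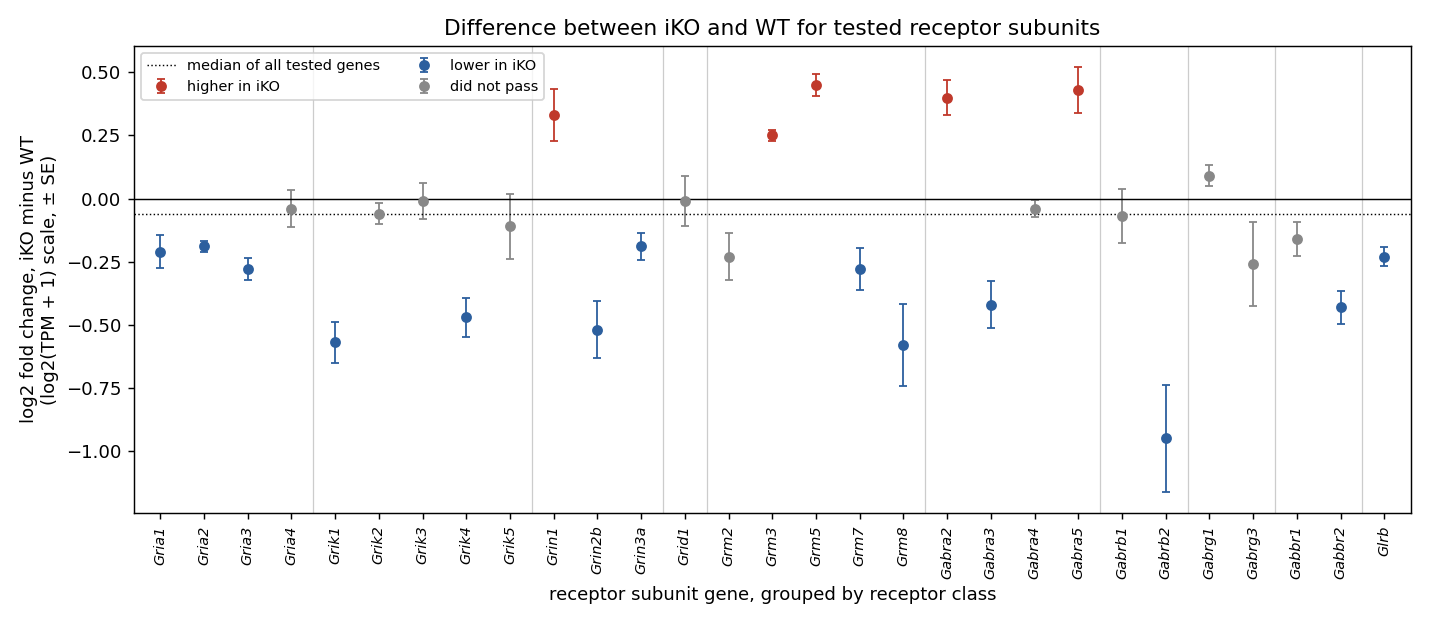
Log2 fold change of iKO minus WT with its SE for 29 of the 34 tested subunit genes, coloured by the result of the test; the dotted line is the median of all 16413 tested genes. Grm3, Grm5, Grin1, Gabra2 and Gabra5 lay above 0 and passed, 13 of the genes shown lay below and passed, and Gabrb2 was lowest at -0.95.

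GABA-A receptors combine alpha, beta and gamma subunits, and the alpha subunit sets where and how the receptor acts. Of the alpha genes, Gabra4 led at 49.8, 52.6, 51.7 and 52 TPM in iKO and 50.7, 52.3, 54.4 and 54.3 TPM in WT and did not pass (adjusted p = 0.382). Gabra2 and Gabra5 rose and Gabra3 fell. Gabra2, an alpha subunit that is abundant in the developing forebrain, rose from 7.5, 6.43, 7.78 and 7.32 TPM in WT to 9.13, 9.76, 10.1 and 10.5 TPM in iKO (log2 fold change 0.40, SE 0.0695, adjusted p = 0.00128). Gabra5, whose subunit is found largely outside synapses, rose from 1.11, 1.09, 1.07 and 1.17 TPM to 2, 1.91, 1.52 and 1.99 TPM (log2 fold change 0.43, SE 0.0907, adjusted p = 0.00363). Neither gene's groups overlapped. In the authors' deposited table both were also higher, with log2 fold changes of 0.79 for Gabra2 and 1.01 for Gabra5; the pseudocount of 1 compresses the change of a gene as low as Gabra5, which was 0.68 with a pseudocount of 0.1.

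Gabra3 fell from 9.45, 11, 11 and 8.93 TPM in WT to 6.46, 7.96, 8.02 and 6.8 TPM in iKO (log2 fold change -0.42, SE 0.0923, adjusted p = 0.00484), without overlap. This result was not shared by the authors' deposited table, where the log2 fold change of Gabra3 was 0.01 (adjusted p = 0.949). Gabra2 held 13.7% ± 0.542 of the summed alpha TPM in iKO and 9.92% ± 0.755 in WT, Gabra3 10.2% ± 0.88 and 13.8% ± 1.28, and Gabra4 71.7% ± 0.808 and 72.3% ± 1.16 (SD, n = 4).

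Beta subunits carry part of the GABA binding site, and Gabrb1 led among their genes. Gabrb1, the head-to-head neighbour of Gabra4 on chromosome 5 with which it shares 46 annotated exonic bases, stood at 21, 26.8, 28.7 and 28 TPM in iKO and 31.1, 27.9, 25.9 and 24.6 TPM in WT and did not pass (adjusted p = 0.622). Gabrb2, a beta subunit gene of mature synapses, had the lowest log2 fold change of the tested members on the log2(TPM + 1) scale. It fell from 4.62, 5.44, 4.66 and 2.77 TPM in WT to 1.41, 1.77, 1.17 and 2.82 TPM in iKO (log2 fold change -0.95, SE 0.212, adjusted p = 0.00495). Replicate 4 of the groups met at nearly the same level, so the groups overlapped, and the log2 fold change was -1.11 without either of them.

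Gabrg1, whose gamma subunit is found in glia, did not pass. It stood at 34.3, 34.7, 35.2 and 34.6 TPM in iKO and 30.7, 34.4, 31.7 and 33.1 TPM in WT (log2 fold change 0.09, adjusted p = 0.0853). Gabrg1 was called higher with trimmed mean of M values factors (0.16, adjusted p = 0.00858), with quantile normalization (0.15, 0.0119), after removal of the length and GC trend (0.25, 0.000528) and without WT replicate 2 (0.12, 0.0318). Gabrg3 ranged from 1 to 1.33 TPM in iKO and between 1.07 and 2.29 TPM in WT, and did not pass (adjusted p = 0.227). Gabra4, Gabrb1 and Gabrg1, the leading gene of each GABA-A class, none of which passed, together made up most of the GABA-A transcripts: their shares of the summed GABA-A TPM were 32.3%, 16.4% and 21.8% in iKO and 31.7%, 16.4% and 19.4% in WT.

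**Figure D3:**
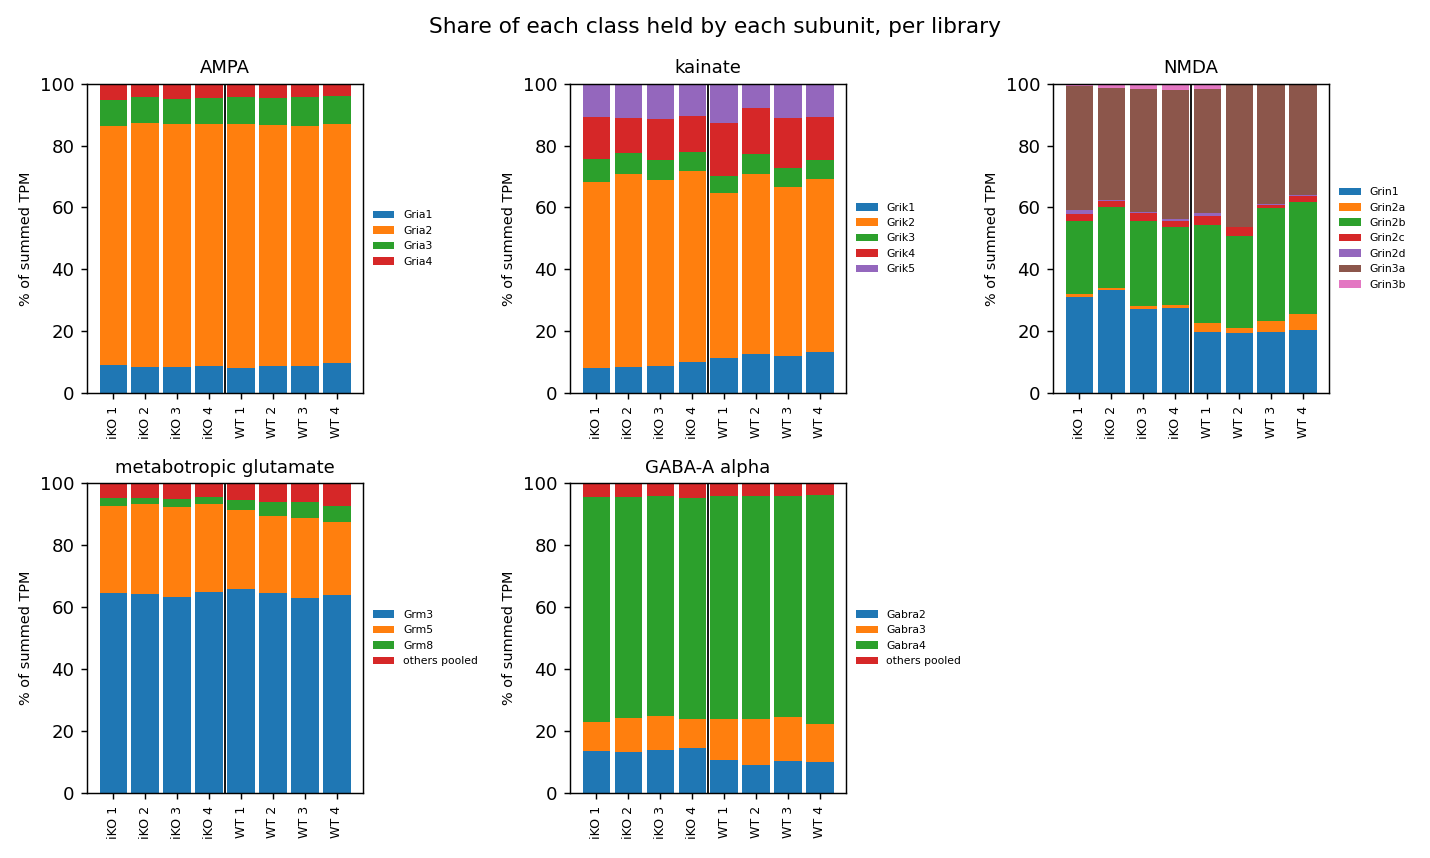
Share of each subunit in the summed TPM of its class, in percent, stacked for each of the 4 iKO and 4 WT libraries, with metabotropic and GABA-A alpha members under 5% in every library pooled; a black line parts the groups. AMPA and GABA-A alpha bars were led by Gria2 and Gabra4 at nearly equal height in all libraries, while the Grin1 share was 27.3% to 33.2% in iKO and 19.5% to 20.5% in WT.

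Further GABA-A genes lay below the filter. Gabrr1, which encodes a rho subunit, stood at 0.409, 0.273, 0.454 and 0.272 TPM in iKO and 1.28, 0.73, 1.09 and 1.29 TPM in WT, without overlap (exact permutation p = 0.0286, adjusted p = 0.123), and its log2 fold change in the authors' deposited table was -1.56 (adjusted p = 0.000219). Gabrd, Gabre, Gabrq and Gabrr2 had overlapping groups with every value under 1 TPM. Gabrp reached 0.121 TPM in iKO, with 0 listed for each WT library, and Gabrr3 did not exceed 0.0527 TPM.

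GABA-B receptors pair Gabbr1, which binds GABA, with Gabbr2, which brings the pair to the membrane and couples to G proteins. Gabbr2 fell from 9.67, 10.6, 9.69 and 10.7 TPM in WT to 7.57, 7.71, 6.55 and 7.47 TPM in iKO, without overlap (log2 fold change -0.43, SE 0.0654, adjusted p = 0.000624). Gabbr1 was more abundant, at 41.9, 47.8, 41.3 and 40.9 TPM in iKO and 44.1, 52, 45.4 and 50.5 TPM in WT, and did not pass (log2 fold change -0.16, adjusted p = 0.085). It was called lower without iKO replicate 2 (-0.21, adjusted p = 0.0249), without WT replicate 1 (-0.19, 0.0483) and with the replicate block (-0.16, 0.0384).

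Glycine receptors need an alpha subunit for the binding site, while the beta subunit, encoded by Glrb, ties them to gephyrin. Glrb stood at 37.8, 38.6, 39.7 and 36.7 TPM in iKO and 44, 43.4, 46.6 and 46.4 TPM in WT, without overlap (log2 fold change -0.23, SE 0.0387, adjusted p = 0.000986). The alpha genes were far lower and none reached the filter. Glra2, the alpha subunit of the immature brain, stood at 0.478, 0.608, 0.668 and 0.571 TPM in iKO and at 0.76, 1.18, 0.623 and 0.583 TPM in WT, and the groups overlapped (exact permutation p = 0.171, adjusted p = 0.362). Glra4 stood at 0.0713, 0.292, 0.427 and 0.142 TPM in iKO and at 0, 0.164, 0.164 and 0 TPM in WT, also with overlap, and Glra1 and Glra3 did not exceed 0.206 TPM. Glrb alone held 97.6% ± 0.568 of the summed glycine receptor TPM in iKO and 97.7% ± 0.73 in WT (SD, n = 4).

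The TPM comparison and the authors' own comparison were set side by side for the members. With an adjusted p under 0.05, the authors' deposited table called 7 members higher and 14 lower, against 33.9% called of all its 29438 genes with a fold change. Both come from the same libraries, so this is not a second measurement. Besides Gabra3, the values parted for Gabrb1, which the deposited table called lower (-0.21, adjusted p = 2.44e-05). They also parted for Gabbr1 (-0.14, 0.000345) and Gabrg1 (0.19, 1.08e-05), which it called while the TPM test did not. Gria1 (-0.06, 0.371) and Grm7 (-0.22, 0.287) were called by the TPM test only. Of the members below the filter, the deposited table called Gabrr1 lower (-1.56, adjusted p = 0.000219), which did not pass the permutation test. It also called Grin3b higher (1.55, SE 0.635, adjusted p = 0.0375), a gene below 1 TPM in every library.

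**Figure D4:**
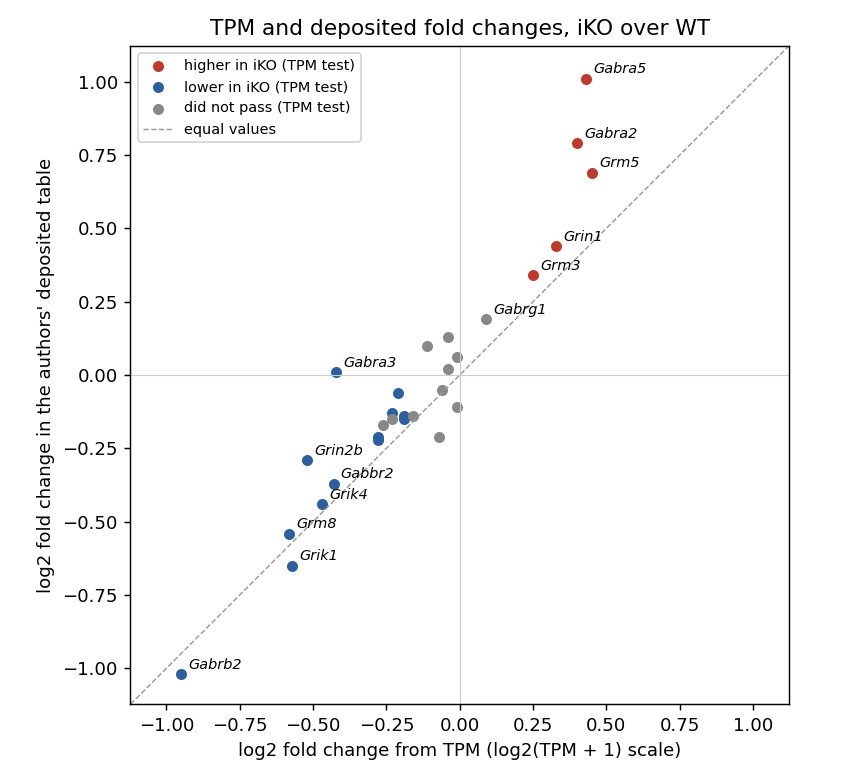
Log2 fold change from TPM (horizontal, log2(TPM + 1) scale) against that of the authors' deposited table (vertical) for 29 of the 34 tested members; the dashed line marks equal values. Gabra2 and Gabra5 lay above the line at 0.79 and 1.01 on the vertical axis, and Gabra3 lay at -0.42 on the horizontal axis and 0.01 on the vertical axis.

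Genes that work with these receptors were taken from 7 lists of partner genes with 93 genes in all, of which 78 passed the filter. Of these, 17 were higher and 29 lower, or 59% called, against 52.6% of all genes; with the replicate block, or without WT replicate 1, 10 were higher. The counts of each list stand beside 20.7% higher and 31.9% lower among all tested genes. Glutamate synthesis and transport genes had 2 of 8 higher and 5 lower. Glul, the glutamine synthetase gene, stood at 152, 153, 152 and 153 TPM in iKO and 315, 315, 309 and 325 TPM in WT (log2 fold change -1.04, SE 0.0192, adjusted p = 2.4e-09). The glial glutamate transporter genes Slc1a3 (1241 ± 27 TPM in iKO against 2039 ± 33.3 TPM in WT) and Slc1a2 (91 ± 10.8 and 122 ± 8.6 TPM; SD, n = 4) were also lower. Slc17a6, a vesicular glutamate transporter gene of neurons, stood at 6.75 and 6.62 TPM and did not pass (adjusted p = 0.923).

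GABA and glycine synthesis and transport genes had 1 of 10 higher and 5 lower. Slc6a9, a glycine transporter gene of glia, fell from 38.2 ± 1.72 to 26 ± 0.24 TPM (SD, n = 4; log2 fold change -0.53, adjusted p = 6.47e-06). The genes of the GABA-making enzymes went in opposite directions: Gad1 fell from 77.4 to 65.8 TPM (adjusted p = 0.0034) and Gad2 rose from 59.5 to 67.1 TPM (adjusted p = 0.00235). Of the chloride cotransporter genes, Slc12a5, which exports chloride in maturing neurons, rose from 0.981 to 1.64 TPM (adjusted p = 0.0498), and Slc12a2, which imports it, stood at 12.5 and 13.3 TPM and did not pass (adjusted p = 0.168).

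AMPA receptor auxiliary genes had 2 of 13 higher and 4 lower. Cpt1c fell from 91.7 to 64.6 TPM (adjusted p = 1.42e-06) and Cacng5, a TARP gene, from 44 to 37.8 TPM (adjusted p = 0.000353), while Cnih2, a cornichon gene, rose from 6.4 to 8.06 TPM (adjusted p = 0.026). Excitatory scaffold genes had 5 of 26 higher and 10 lower. Dlgap1 fell from 183 to 118 TPM (adjusted p = 7.65e-08) and the adhesion genes Lrrtm2 and Nlgn3 from 39.7 to 30.8 TPM and from 75.6 to 63.9 TPM, while the kinase gene Camk2a rose from 11 to 37.7 TPM (adjusted p = 4.74e-05). Inhibitory scaffold genes had 5 of 16 higher and 5 lower. Among the higher were Gphn, the gephyrin gene, at 18.7 and 16.8 TPM in iKO and WT (adjusted p = 0.0286) and Gabarap at 137 and 107 TPM (adjusted p = 7.78e-05). The lower genes of this list are not named. Of the kainate and NMDA auxiliary genes, Srr, which makes the NMDA co-agonist D-serine, rose from 43.9 to 55.2 TPM (adjusted p = 0.0142), and Neto1 and Neto2 did not pass.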

How the data were processed

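The deposited TPM values, scaled by the authors for transcript length and library total, covered 55385 genes in 8 libraries, whose titles gave group and replicate number. RNA was amplified, per the labels' protocols, by Smart-Seq2, which does not mark strand. Not given in the sources used here were the aligner, the counter and the build. A table of the authors' own comparison holds, per the file headers, a mean normalized signal, a log2 fold change with its SE, a test score, a p-value and an adjusted p-value per gene.

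Values of log2(TPM + 1) were tested with limma 3.58.1 (R 4.3.3; trend and robust moderation) and Benjamini-Hochberg adjustment over 16413 genes at 0.05, two-sided; fold changes are iKO minus WT and understate low genes. Genes needed 1 TPM in at least 4 libraries. Lower genes had an exact two-sided permutation test over 70 assignments, adjusted over 7700 genes. The procedure was tested on simulated data, where it missed most of the smallest changes put in and few of the larger ones. How many changes it missed in the 8 libraries was not tested. Members and lists were chosen with earlier results of these data known. Values in every library were given for the 3 most abundant members of each class, for called members of at least 5 TPM in the higher group, and for up to 8 other called members by size of change, and also for further members; partner genes named were up to 4 per list by p and marker genes up to 3 per list by level. Cnih2, Gad1, Gphn, Slc17a6, Slc17a7, Fabp7, Hes5 and Nes fall outside that rule and were chosen after their values were seen. Alternatives were pseudocounts of 0.1 and 5, filters, quantile normalization, factors from a trimmed mean of M values, the replicate block, array weights, a score of Y-linked genes against Xist, leaving out each library and the deposited comparison; removal of a length and GC trend (loess, span 0.3; GENCODE M21 models for 99.6% of genes) was added after seeing the data. Some members and partner genes entered every fit and count but are not reported here. Exons of 15 members overlap a gene on the opposite strand. Figures used matplotlib 3.10.9.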

Additional observations from a re-analysis of the deposited data

Results flagged for a closer look

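In 3 of 58 groups of 4 libraries (29 genes in 2 groups), 1 library lay far from the other three relative to the range of its group, which chance gives in about 1 in 20 groups. Gabbr1 was highest in iKO replicate 2 at 47.8 TPM, against 40.9 to 41.9 TPM in the others, and its call as lower appeared without that library (adjusted p = 0.0249). Grm2 was lowest in iKO replicate 1 at 2.07 TPM, against 2.63 to 2.73 TPM. Grik3 was lowest in WT replicate 1 at 2.99 TPM, against 3.34 to 3.39 TPM.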

How the results depend on the processing

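Depth is unknown, so the precision of low TPM values cannot be stated from the TPM alone, which bears most on the 18 members below the filter. The authors' deposited table gives an SE of the log2 fold change and a mean normalized signal. These were 0.635 and 6.11 for Grin3b, 0.385 and 14.7 for Gabrr1, and 0.241 and 32.7 for Gabra5, against 0.019 and 5781 for Gria2. The counts of 5 members higher and 15 lower became 4 to 5 and 12 to 15 when a library was left out, and stayed within 1.5 times under every alternative other than the Y-linked score. With that score as covariate, 0 members were higher and 0 lower; over all genes 195 were higher and 228 lower, among partner genes 0 and 4, and the log2 fold change of Ash2l was -1.07. Partner genes higher numbered 10 with the replicate block, 29 in the authors' deposited table, and 10 to 15 when a library was left out, against 17. Same-numbered libraries did not deviate together (correlations -0.0445 to 0.000694, 0 of 8 libraries closest to their own number). These values gave no sign that the numbers pair the samples, but they cannot exclude it. With the replicate block 4 members were higher and 16 lower. Of all called genes, 39.3% were higher, and 49.9% with trimmed mean factors, 49.7% with quantile normalization, 53.3% with the length and GC trend removed and 50.6% in the deposited table.

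Signs changed mainly for genes that did not pass; the cause was not tested. With trimmed mean factors the log2 fold change was 0.02 for Gria4, 0.00393 for Grik2, 0.04 for Grik3, 0.03 for Grid1 and 0.03 for Gabra4. With quantile normalization it was 0.08 for Gria4, 0.01 for Grik2, 0.12 for Grik3, 0.02 for Grik5 and 0.11 for Grid1. After removal of the length and GC trend, 0.08 was found for Gria4, 0.09 for Grik2, 0.10 for Grik3, 0.09 for Grid1, 0.06 for Gabra4 and 0.06 for Gabrb1. In the authors' deposited table it was 0.13 for Gria4, 0.06 for Grik3, 0.10 for Grik5, 0.01 for Gabra3 and 0.02 for Gabra4. With the Y-linked score it was 0.22 for Gria1, 0.05 for Grik3, -0.24 for Grin1, 0.73 for Grid1, 0.73 for Grm8, 0.05 for Gabra4 and 0.67 for Gabrg3. Leaving out a library gave -0.07 to 0.00152 for Gria4, -0.04 to 0.02 for Grik3, -0.09 to 0.06 for Grid1 and -0.12 to 0.03 for Gabrb1.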
